A study of Drosophila melanogaster with 2 samples.

Results

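Genes of tracheal development were examined for binding of kay, the fly Fos protein, in chromatin of whole *Drosophila melanogaster* embryos. They were the 10 genes named trh, btl, bnl, vvl, knrl, salm, esg, pio, verm and serp, chosen by name, out of 13945 protein-coding genes on 6 chromosome arms. The ChIP-seq libraries came from 1 transgenic line that stably carries kay fused at its C-terminus to GFP. Embryos of both sexes were collected together at 0 to 24 hours, and the tagged protein was precipitated with an antibody to GFP. Both libraries belong to the same group, as biological replicates 2 and 4, which leaves no contrast between conditions, and the labels cite a separate protocol document for each. The data are deposited lists of regions in the dm6 build: 30000 candidate regions for each replicate and for both pooled, and a shorter list of IDR peaks, the regions kept by the irreproducible discovery rate procedure, which scores how well replicates agree on a region.

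Every candidate carries a signal from the peak caller used by the authors, and a rank of 1 marks the strongest region of a list. Pooled signals ran from 23.3 to 2530.6 with a median of 37.8, and the weakest IDR peak had 93.6. The IDR peaks were the strongest 12.9% of the pooled candidates, with no weaker region among them. The pooled candidates are labelled as peaks and background for input to the IDR procedure, so a weak one may be background. Read depth is unknown, as the lists give regions without read counts. Signals were ranked within a list only, because their scaling between the libraries is not stated. Whole embryos mix all tissues, so binding in few cells and weak binding in many cells cannot be told apart. A region was assigned to a gene when its summit lay in the gene or within 3 kb of it.

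The trachea is the branched tube system that carries air to the tissues of the fly. The bHLH-PAS factor Trh, with its partner Tgo, and the POU factor Vvl start the tracheal programme, and the FGF ligand Bnl guides branches through its receptor Btl on tracheal cells. Knrl, Salm and Esg pattern particular branches or tip cells, and the secreted proteins Pio, Verm and Serp shape the lumen of the tubes. Kay joins with Jra, the fly Jun protein, into AP-1, which binds TGACTCA or its reverse complement TGAGTCA.

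The sequences that follow are the AP-1 sites anywhere in candidates at these genes, the sites of a tracheal factor within 50 bp of a candidate's summit, and the summit of the single IDR peak inside one of the genes. They were read from the Release 6 genome on the strand of the gene, and capitals mark the site, or in the last line the summit base. The first 3 lines are the only AP-1 sites found in any candidate at these genes. TACGTG is the element that Trh and Tgo dimers bind, and ATGCAAAT (reverse complement ATTTGCAT) is the octamer of POU factors, the class of Vvl.
bnl, AP-1 site at the summit, chr3R:19826847-19826871, minus strand: tgtgggaagTGAGTCAgtttcagtc
bnl, AP-1 site 21 bp from the summit, chr3R:19808370-19808394, minus strand: cggccgtggTGACTCAccgaaatgg
knrl, AP-1 site 148 bp from the summit, chr3L:20606765-20606789, minus strand: ttgccaacaTGACTCAtctgattgg
btl, TACGTG 34 bp from the summit, chr3L:14078556-14078579, plus strand: tatacccttTACGTGattatacta
btl, octamer 40 bp from the summit, chr3L:14079328-14079353, plus strand: gctaataatATTTGCATtcataactt
vvl, octamer 8 bp from the summit, chr3L:6794983-6795008, plus strand: gcatcatttATTTGCATttactttcg
trh, summit of the IDR peak, chr3L:377755-377783, minus strand: tttagaaatccaaaTataaaactttttag

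The question was how much kay bound at genes that build the trachea. Weak candidates, which can include background, lay at all 10 genes, and strong regions were few. Each of the 10 had at least 1 pooled candidate, against 77.8% of all protein-coding genes. An IDR peak lay at 2 of the 10, trh and verm, against 37.5% of all genes. A gene's own promoter, taken as 500 bp to either side of one of its transcription start sites (TSSs), held an IDR peak at trh alone, against 18.8% of all genes. A candidate of any strength lay in the own promoter of 5 of the 10 (trh, bnl, vvl, salm and verm), against 53% of all genes. These 10 genes are long, with a median of 9.38 kb against 2.17 kb for all genes, so each had more sequence in which a region could fall. No test was made of any of these counts, since the genes were chosen by name with earlier results known.

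Counted by length of sequence, the candidates at the tracheal genes were about as dense as elsewhere and the IDR peaks sparser. The 10 genes with their surroundings span 207 kb, and 49 pooled candidates in 44 clusters of overlapping regions had their summit there. That is 23.7 candidates per 100 kb, against 25.8 in and around all protein-coding genes. The IDR peaks came to 0.967 per 100 kb, from 2 peaks, against 3.44 for all genes. Of all IDR peaks 54.7% lay within 500 bp of a TSS, against 30.7% of all candidates. A count by length takes no account of how many TSSs that length holds, and the part of this was not tested. Of the 49 candidates 4.08% were IDR peaks, against the 12.9% of all 30000. The median signal of the 49 was 34.7, against 37.8 over all pooled candidates, and the highest was 121.2. The gene bnl alone supplied 21 of the 49, at 43.1 per 100 kb, and without it the density was 17.7 candidates per 100 kb.

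**Figure D1:**
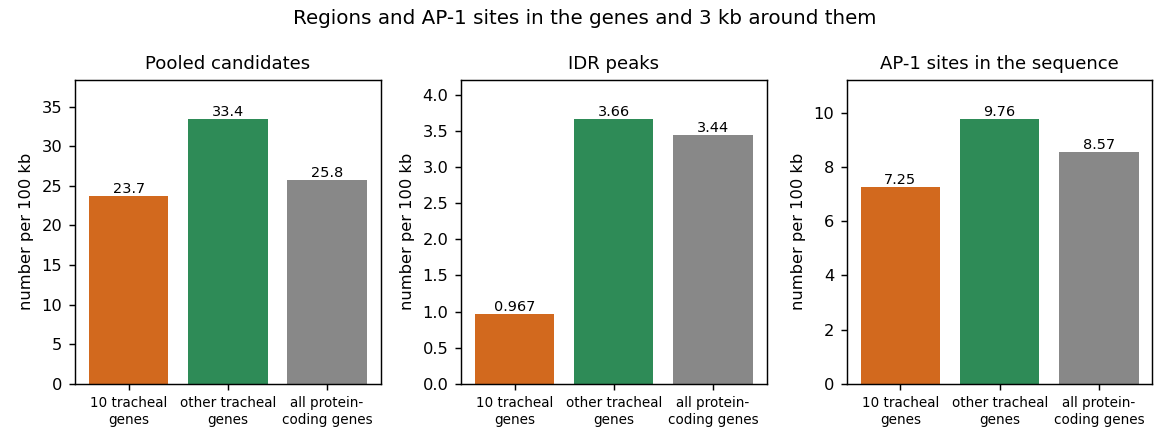
Number of pooled candidates, IDR peaks and AP-1 sites per 100 kb of sequence in the genes and 3 kb around them, for the 10 tracheal genes, 41 other tracheal genes and all 13945 protein-coding genes. The bars of the 10 tracheal genes stand at 23.7 candidates, 0.967 IDR peaks and 7.25 AP-1 sites.

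The candidates at these genes lay mostly away from promoters. Of the 49 summits 28 fell in an intron of the gene, 11 downstream, 5 upstream, 4 in a 5' UTR and 1 in a 3' UTR. A TSS of any gene lay within 500 bp of 7 summits (14.3%), against 30.7% of all candidates. The median distance to the nearest TSS was 5105 bp, against 1471.5 bp. For 35 of the 49 the nearest TSS was that of the tracheal gene itself, and for 14 it was that of a neighbour. Of the 14 TSSs of the 10 genes, 9 had no candidate summit within 500 bp.

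The replicates shared a smaller part of these regions than of candidates in general. Of the 49 candidates, 20 (40.8%) overlapped a candidate in the lists of both replicates, against 66.7% of all 30000. Among candidates that are not IDR peaks the share was 38.3% at the tracheal genes, against 61.8% of all such candidates. A further 14 were found in replicate 2 alone, 11 in replicate 4 alone and 4 in neither. The distance from promoters differs between these sets as given above, and its part in the difference was not tested.

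**Figure D2:**
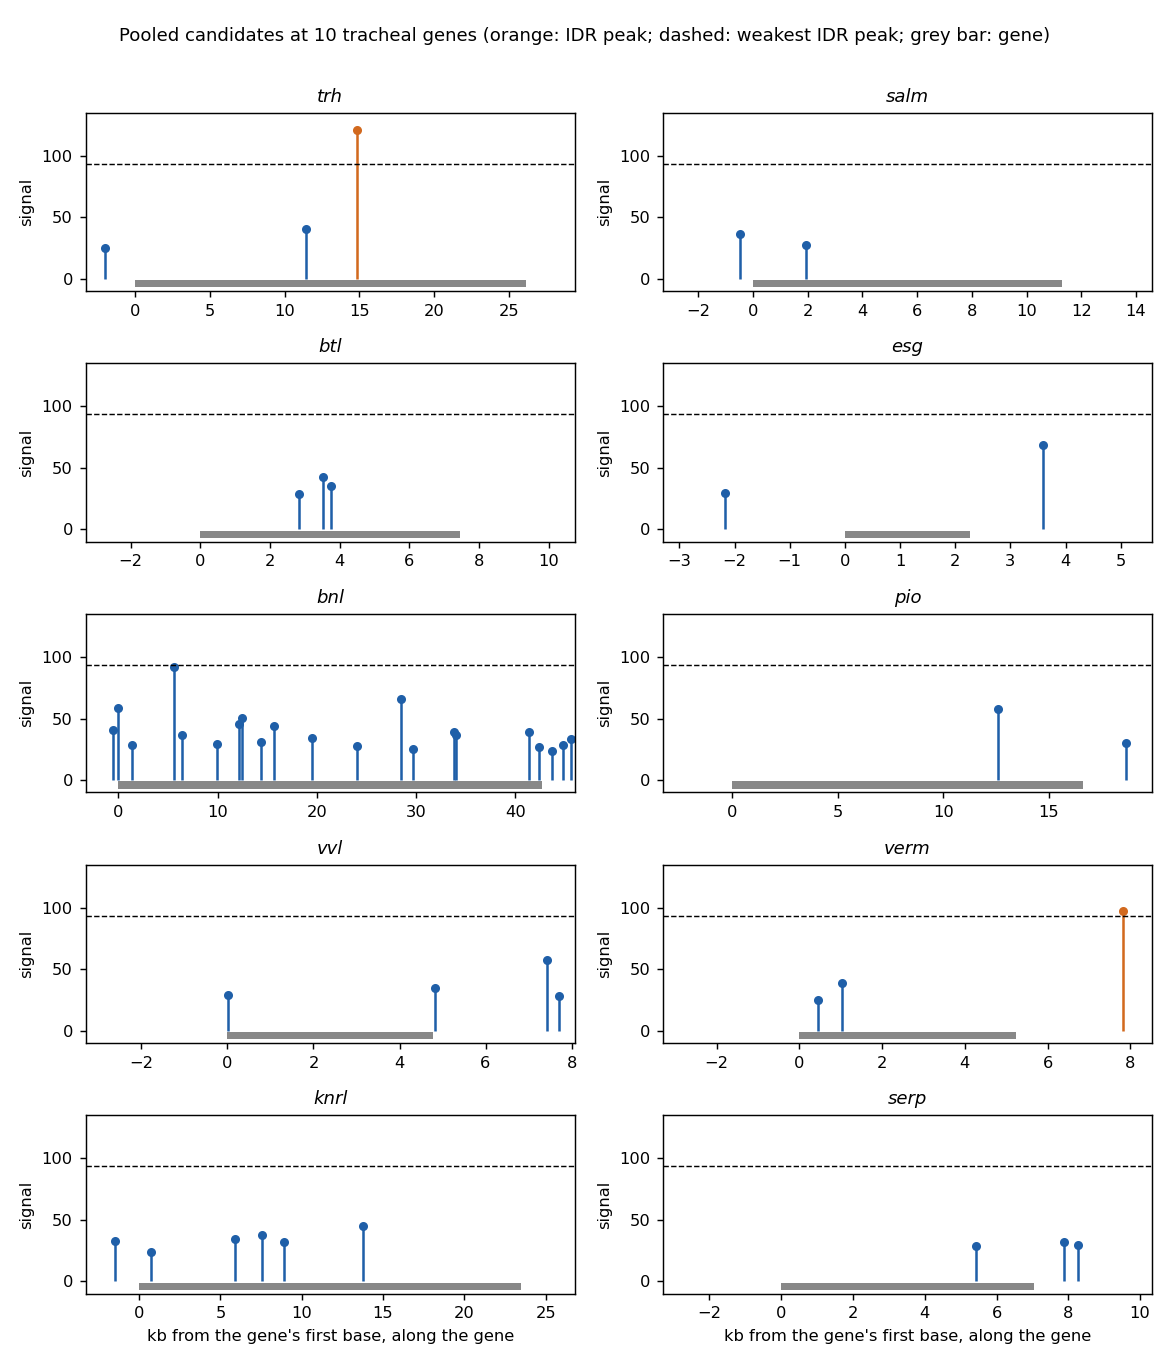
Signal of each pooled candidate (vertical lines ending in points) by the position of its summit in kb along the gene, for the 10 genes, with the gene as a grey bar and 3 kb to either side. The dashed line marks the weakest IDR peak (93.6), which 1 candidate at trh (121.2) and 1 at verm (97.4) exceed, while the strongest at bnl reaches 91.7.

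The early regulators come first. trh (FBgn0262139, chr3L:366524-392633, minus strand) encodes the PAS-domain factor that gives cells tracheal identity. Its IDR peak, chr3L:377541-377996, ranked 2561 of 30000 with a pooled signal of 121.2, and had a signal of 95.8 and rank 1559 in replicate 2 and a signal of 43.8 and rank 3328 in replicate 4. The summit of that replicate 4 region lay 335 bp from the TSS, against 453 bp for the pooled summit. The strongest replicate 4 candidate with its summit within 100 bp of the pooled one ranked 28194. By overlap, the trh region was the strongest at any of the 10 genes in all 3 lists. The summit lay in an intron, 453 bp upstream of an internal TSS and 14864 bp from the first base of the gene, and no AP-1 site lay anywhere in the region. The sequence within 50 bp of this summit had a GC content of 27.7%, against a median of 34.7% at all IDR peaks. The other pair of candidates at trh were weak. One, in an intron 3892 bp from a TSS, had a pooled signal of 40.0 and was found in replicate 2 (rank 8781) and not in replicate 4. The other, 2013 bp upstream of the gene, had 24.7 and was found in neither replicate's list.

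vvl (FBgn0086680, chr3L:6790158-6794941, plus strand) encodes a POU-homeodomain factor that acts beside Trh. It had 4 candidates with pooled signals from 28.3 to 57.5 and no IDR peak. The strongest, chr3L:6797362-6797817, lay 2649 bp past the end of the gene and ranked 7963 pooled, 10121 in replicate 2 and 11245 in replicate 4. A candidate on the vvl promoter, 15 bp from the TSS, had a signal of only 29.2 and was absent from the list of replicate 4. The candidate 46 bp past the end of the gene (signal 34.7) contained the octamer printed above, 8 bp from its summit.

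The FGF pair differed in the number of regions, in windows of 13.5 kb for btl and 48.7 kb for bnl. Per 10 kb they had 2.23 and 4.31 candidates. btl (FBgn0285896, chr3L:14075772-14083229, plus strand) encodes the FGF receptor of tracheal cells. It had 3 weak candidates between 2830 and 3759 bp from the first base of the gene and none within 500 bp of a TSS. Their pooled signals were 28.5, 42.6 and 34.9. The strongest, chr3L:14079072-14079527, ranked 12507 pooled, 15424 in replicate 2 (signal 24.3) and 18729 in replicate 4 (signal 15.3). The first carried TACGTG and the second the octamer, both printed above, and none held an AP-1 site. The nearest IDR peak to a btl TSS was 19.8 kb away, nearest to the TSS of Frl.

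bnl (FBgn0014135, chr3R:19794073-19836817, minus strand) encodes the ligand of Btl, which cells around the trachea release. Its 21 candidates in 19 clusters spread over the whole gene, with pooled signals from 23.8 to 91.7 and a median of 36.7. The strongest, chr3R:19830963-19831418, lay in an intron 5626 bp from the TSS and ranked 3989, with a signal just under the 93.6 of the weakest IDR peak. In replicate 2 it had a signal of 60.5 and rank 3596, within the strongest 12.9% of that list, and in replicate 4 a signal of 27.1 and rank 7104, outside them. The bnl promoter held a candidate 4 bp from the TSS with a pooled signal of 58.9 and rank 7665. That region ranked 4685 in replicate 2 and was absent from the list of replicate 4. A candidate 537 bp upstream of the gene showed the opposite order, with rank 11310 in replicate 2 and 6517 in replicate 4.

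The AP-1 sites in candidates were mostly those of bnl. In the 48.7 kb of bnl and its surroundings the sequence held 8 AP-1 sites, or 16.4 per 100 kb against 8.57 for all genes, and 2 of the 8 fell in a candidate. The site centred on a summit belonged to a weak region (pooled signal 29.6, rank 21676) that was found in replicate 4 at rank 13915 and not in replicate 2. The site 21 bp from a summit belonged to chr3R:19808133-19808588, an intronic region with a pooled signal of 66.0 and rank 6481, which ranked 7344 in replicate 2 and 10315 in replicate 4. Over all 10 genes 2 of the 49 candidates (4.08%) had an AP-1 site within 50 bp of the summit, against 2.5% of all candidates and 4.77% of all IDR peaks. With the whole region searched it was 3 of 49 (6.12%), against 7.82% of all candidates, the third being that of knrl. Of the 15 AP-1 sites in the 207 kb, 20.0% lay in a candidate, against 22.3% for all genes, and none lay in an IDR peak, against 4.78%.

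The genes that pattern branches and tip cells had no IDR peak. knrl (FBgn0001323, chr3L:20597141-20620659, minus strand), which encodes a nuclear receptor-like factor close to Kni, had 6 candidates with pooled signals from 23.6 to 45.3. The strongest, chr3L:20606697-20607152, ranked 11392 pooled and 10094 in replicate 2, and was absent from the list of replicate 4. It contained the AP-1 site printed above, 148 bp from the summit. salm (FBgn0261648, chr2L:11434311-11445614, minus strand), which encodes a zinc finger factor of the dorsal trunk, had 2 candidates. The stronger, 468 bp upstream of the TSS, had a pooled signal of 36.1 and ranked 16097, with 18941 in replicate 2 and 10734 in replicate 4. The nearest IDR peak to the salm TSS was 168 kb away, the farthest such distance among the 10 genes.

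esg (FBgn0287768, chr2L:15333866-15336138, plus strand) encodes a Snail family zinc finger factor needed in the tip cells that fuse branches. It is the shortest of the 10 genes, at 2.27 kb, and had 2 candidates. The stronger, chr2L:15337236-15337691, lay 1326 bp past the end of the gene, with a pooled signal of 68.2 and rank 6190. Its rank was 8572 in replicate 2 and 5043 in replicate 4, so it was outside the strongest 12.9% of either list. The weaker one, 2167 bp upstream, was found in replicate 4 only.

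The genes of the lumen had no IDR peak of their own, and the one assigned to verm lay at a neighbour. verm and serp encode chitin deacetylases that limit tube length, and they lie next to each other on chromosome 3L. verm (FBgn0261341, chr3L:19690033-19695260, minus strand) was assigned the second IDR peak, chr3L:19687211-19687666. That peak lay 2594 bp past the end of verm and 86 bp from the TSS of CG8765, inside the promoter window of that neighbour. It ranked 3641 pooled (signal 97.4), 5688 in replicate 2 (signal 45.9) and 3510 in replicate 4 (signal 42.4). The candidates inside verm had pooled signals of 24.7, at 459 bp from the TSS, and 38.8, at 1021 bp. serp (FBgn0260653, chr3L:19700977-19708015, minus strand) had the lowest maximum of the 10 genes, a pooled signal of 32.4 at rank 19011. Of its 3 candidates 1 lay in an intron, in replicate 2 only, and 2 past the end of the gene, in replicate 4 only. These 2, the strongest among them, were nearest to the TSS of verm (4879 and 4490 bp). Both overlapped the same replicate 4 region. The nearest candidate to a serp TSS was 5105 bp away.

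pio (FBgn0020521, chr2R:24581245-24597862, plus strand) encodes a zona pellucida domain protein that lines the lumen. It had 2 candidates. The stronger lay in an intron, 4186 bp from the TSS of CG13587, with a pooled signal of 57.7 and rank 7920, and ranked 8417 in replicate 2 and 10351 in replicate 4. The weaker (30.0) lay 2027 bp past the end of the gene and 58 bp from the TSS of CG3548, and was found in replicate 4 only. With a window of 10 kb, pio gained an IDR peak of rank 609, 34 bp from the TSS of CG4707. That window gave 3 of the 10 genes an IDR peak, against 58.8% of all genes.

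The strongest candidate per gene gave an order in which trh led in every list. By pooled rank the order was trh (2561), verm (3641), bnl (3989), esg (6190), pio (7920), vvl (7963), knrl (11392), btl (12507), salm (16097) and serp (19011). The genes verm and bnl, next to each other in this order, changed places between the replicates. The strongest region at verm ranked 5688 in replicate 2 and 3510 in replicate 4, and the strongest in each list at bnl 3596 and 6517. The bnl ranks belong to different regions. The intronic one ranked 3596 and 7104, and the one 537 bp upstream of the gene 11310 and 6517. The replicate ranks of esg (8572 and 5043) overlapped those of bnl, and those of pio (8417 and 10351) overlapped those of vvl (10121 and 11245). In both replicates serp (17443 and 10186) ranked ahead of salm (18941 and 10734), the reverse of their pooled order. The strongest regions at knrl ranked 9113 and 9109, ahead of vvl in both replicates and of pio in replicate 4. In the pooled order knrl came after both. The replicate 4 region overlapped the candidate 1517 bp upstream of knrl, which replicate 2 lacked. The replicate 2 region overlapped none of the 6 pooled candidates at knrl. The serp ranks likewise belong to different regions, an intronic one in replicate 2 and one past the gene's end in replicate 4. The lowest of the 10 was salm in replicate 2, at 18941, and btl in replicate 4, at 18729. Only trh had a region among the strongest 12.9% in both single lists, with summits apart as given above. bnl joined it in replicate 2 and verm in replicate 4. The median best rank of the 10 genes was 7941, against 4120 for the 10844 genes with any candidate. Of those genes 37.6% had a candidate that ranked higher than the strongest at trh, and 91.1% had one that ranked higher than the strongest at serp.

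**Figure D3:**
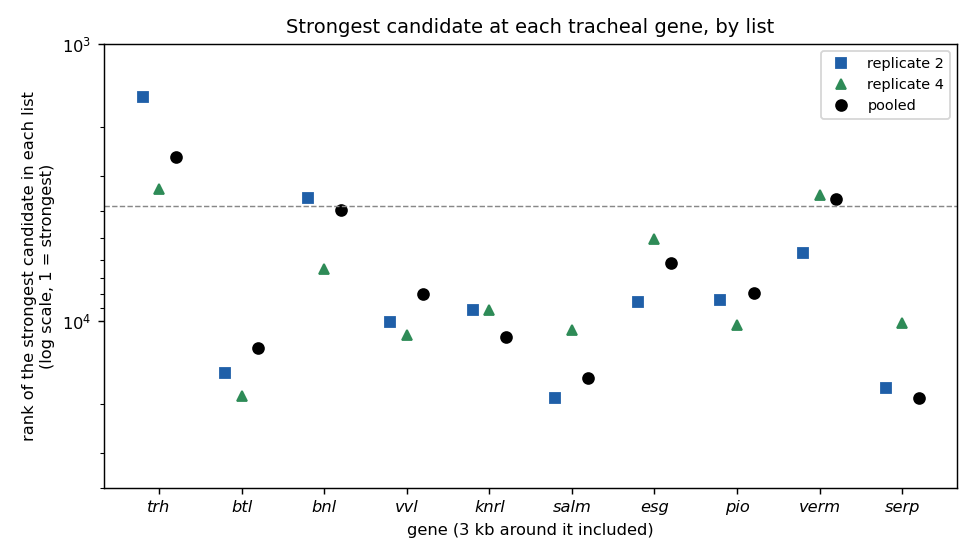
Rank of the strongest candidate at each of the 10 genes in the list of replicate 2 (squares), of replicate 4 (triangles) and of both pooled (circles), on a log scale with strong regions at the top. The points of a gene can belong to different regions. The dashed line marks the rank of the weakest IDR peak, and only the points of trh lie above it in all 3 lists.

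The sites of other factors were rare in these candidates. Within 50 bp of the summit TACGTG was found in 1 of 49 candidates (2.04%), at btl, against 2.29% of all candidates. The octamer was found in 2 of 49 (4.08%), at btl and vvl, against 1.56%. The other 5 motifs searched, also on both strands, each occurred in 0 of 49 candidates. With a count of 0 read as up to 3, this allows a share of up to 6.12%. That bound treats the 49 as independent, though they form 44 clusters. In the list of replicate 4 alone GAGAGAG was found in 2 candidates at these genes, CAGGTAG in 1 and TACGTG in 2, and in that of replicate 2 alone GAGAGAG was found in 1. Within 100 bp of the pooled summits the octamer was found in 4 candidates and GAGAGAG in 1. In all candidates their shares were 0.453% for CAGGTAG (the site of Zelda), 0.163% for AACCGGTT (Grainyhead), 1.81% for GAGAGAG (the GAGA repeat), 1.08% for TATCGATA (the DNA replication-related element) and 0.287% for TGACGTCA (the cAMP response element). Overlaps between motifs were not removed, and with 49 regions each of the 7 counts within 50 bp is 2 or less. The median GC content around the summits was 37.6%, against 38.6% for all candidates.

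A list of 41 other genes, written here for roles in the trachea, held an IDR peak in a larger share than these 10. The 41 were chosen with earlier results of these data known and grouped by role. They are called other tracheal genes here, though htl and ths are FGF genes of the mesoderm. Of the 41, 27 (65.9%) had an IDR peak in the gene or 3 kb around it, against 37.5% of all genes. Where the nearest TSS had to be the gene's own, it was 22 of the 41, against 18.6% of all genes. These genes are also long, and per 100 kb they had 3.66 IDR peaks, against 3.44 for all genes. All 7 signalling genes had an IDR peak. stumps, the adaptor that passes on the FGF receptor signal, had 5 in 3 places, with 2 overlapping pairs, the strongest of rank 1444 (1387 and 2081 in replicates 2 and 4), 399 bp from its TSS. Of these 5, 3 were nearest to the TSS of a neighbour, CG14853 (202 bp) or CG7987 (736 and 530 bp). For pnt, the ETS factor downstream of FGF, the best of 5 ranked 893 (924 and 853), and for sty, the feedback inhibitor of this pathway, the better of 2 overlapping peaks ranked 1474 (1379 and 1371). rho, which activates EGF signalling, had a peak of rank 1460 (2857 and 861). The mesodermal FGF genes htl and ths also had peaks, and both count among the 27 and the 7. htl, the second FGF receptor gene, had a promoter peak of rank 1676 (2060 and 1463), and its ligand gene ths had a peak of rank 927 (903 and 938). btl and bnl had none, though the strongest candidate at bnl (signal 91.7) lay just under the weakest IDR peak (93.6).

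Of the 12 other transcription factor genes 9 (75.0%) had an IDR peak, against 37.5% of all protein-coding genes. hth had the strongest, of rank 442 (433 and 548), then grh at 725 (552 and 1636), sima, the fly hypoxia factor, at 1194 (1746 and 860) and Sox102F at 1461 (1197 and 1994). tgo, the partner of trh, had a peak of rank 3608 that lay 51 bp from the TSS of Kcmf1 and 5939 bp from its own. kni and salr, the close relatives of knrl and salm, had no IDR peak, and their strongest candidates ranked 19291 and 21019. Among the 12 genes of the lumen and cuticle only 3 (25.0%) had an IDR peak: pck (rank 2546, 5 bp from its TSS), rtv (2671) and dpy (3558). Of 10 genes for guidance, fusion and terminal cells 8 (80.0%) had one, led by Rac2 (rank 5), Fhos (304), Abl (911) and sli (1472). Of the 51 IDR peaks at these 41 genes 3 had an AP-1 site within 50 bp of the summit.

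**Figure D4:**
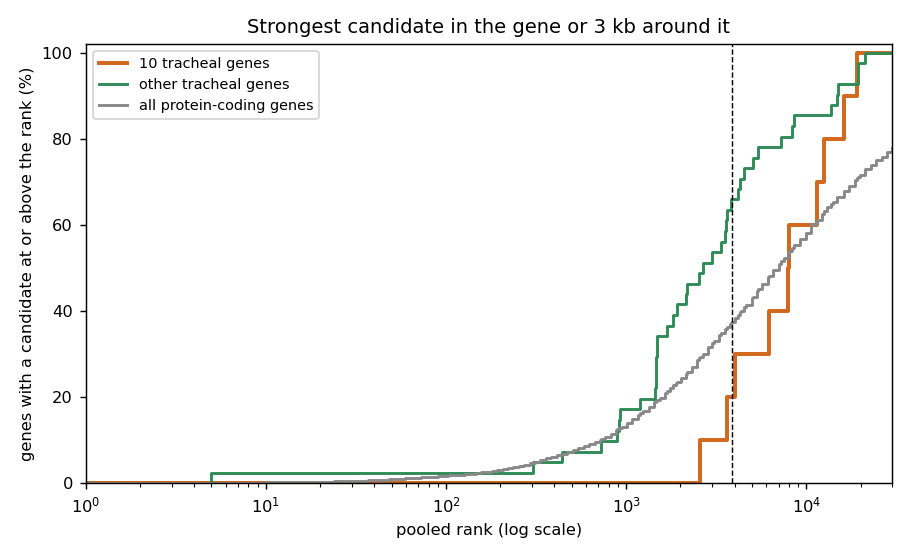
Share of genes (%) whose strongest pooled candidate in the gene or 3 kb around it has at least a given rank (log scale), for the 10 tracheal genes, 41 other tracheal genes and all 13945 protein-coding genes. At the rank of the weakest IDR peak (dashed line) the curves stand at 20.0% for the 10 genes, 65.9% for the other tracheal genes and 37.5% for all genes.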

How the data were processed

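Region lists of anti-GFP ChIP-seq (2 replicates, embryos of 0 to 24 hours) were used as deposited, in narrowPeak format and dm6. Per the file descriptions deposited with the samples, the authors derived each candidate list from aligned reads (a single replicate's, or those of both) with 1 control file, and the IDR list from the candidate lists. Fragments were 200 to 800 bp, per the labels. Aligner and peak caller were not given in the sources used here. The signal is the deposited value of the authors' peak caller. Without read counts the depth per sample is unknown, and the precision is set by counts of regions. The dm3 lists were not used here.

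Coordinates are 1-based. Sequence came from the RefSeq Release 6 assembly, on whose arms all regions fit, and genes and TSSs (19607, of protein-coding transcripts) from Ensembl release 115. The symbols dp, mega and Arl3 of the list of other tracheal genes were matched to dpy, pck and dnd through RefSeq. A pooled region was matched to a replicate's strongest region that overlaps it by at least 1 bp, so overlapping regions can share a match. Motifs were searched on both strands. The rank within a list was by signal.

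Members, gene lists, motifs and alternatives were chosen with earlier results of these data known. All 10 genes are named. Other genes are named where their TSS is nearest to a region described, or as the strongest 4 of a role in the list of other tracheal genes. Those named beyond this rule (sty, htl, tgo, kni, salr) were chosen after their values were seen. No test was made, since there is 1 group. The code was tested on simulated data with planted regions and sites. Python 3.11.15, numpy 2.4.6, pandas 2.3.3 and matplotlib 3.10.9 were used.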

Additional observations from a re-analysis of the deposited data

How the results depend on the processing

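No paired analysis was possible because both libraries belong to the same group. Of 60 alternative values of the counts over genes and regions, 43 stayed within 1.5 times the value given above. The number of tracheal genes with an IDR peak, and of IDR peaks there, was 1 in gene bodies alone (11.1% of all genes). It was also 1 with a window of 1 kb (27.2% of all genes) and where the nearest TSS had to be the gene's own (18.6%). The peak lost in these settings was that near verm, which lies at CG8765. Both numbers were 0 among IDR peaks at or above their median signal of 141.3. With that set the own promoters of the 10 genes held 0 IDR peaks, and 17 other tracheal genes had one. Own-promoter IDR peaks numbered 0 within 250 bp and 2 where a TSS of any gene counted, and own-promoter candidates numbered 2 within 250 bp. Candidates with an AP-1 site near the summit numbered 1 in either replicate alone (lowest and highest 1) and 1 where the nearest TSS had to be the gene's own. Candidates with a tracheal factor motif numbered 5 within 100 bp. Of the single-motif values 6 of 21 moved, by at most 2 candidates. With summits matched within 100 bp in place of overlap, 14 of 15 ranks stayed within 1.5 times, and the replicate 4 rank of the trh peak was 28194 in place of 3328. No region had a summit that near in replicate 2 for btl and vvl, in replicate 4 for knrl, or in either for serp. Either replicate alone gave 2 genes with a strong region, but different genes beside trh. Ranks are those of 2 libraries of unknown depth. A region missing from a list may still be bound, and a weak candidate in a list may be background.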
